A study of Sus scrofa with 2 samples.

Results

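The nuclear NDUF genes encode subunits and assembly factors of mitochondrial complex I (NADH:ubiquinone oxidoreductase), and their transcripts were followed across slow and fast muscle spots of 2 pig muscle sections. Members were all features whose gene symbol starts with NDUF, which gave 39 of 31780 features. They comprised 30 subunits, 8 assembly factors (NDUFAF1 to NDUFAF8) and NDUFA4L2. A further 3 features had no symbol but matched NDUFA4, NDUFA7 and NDUFB1 through their Ensembl identifier in a reference table of gene names, and these are given beside the members and not counted with them. The symbols NDUFA3, NDUFA12, NDUFC1, NDUFS7 and NDUFV3 were not among those of the feature list and were not analysed here.

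The samples were 2 cryosections, 15 µm thick, of the psoas major, a muscle rich in slow oxidative fibres, from female Landrace pigs. Muscle of 2 pigs was collected for this assay, without a label saying which section came from which animal, and the sections lay in separate capture areas of the same slide. No treatment or genotype was compared, so the comparisons lie between classes of spots within each section. RNA was measured with 10x Visium, a spatial assay in which a slide carries barcoded capture spots and each captured molecule is counted once by its unique molecular identifier (UMI).

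A spot can hold several fibres, so spots were classed by the myosin heavy chain transcripts they contained. MYH7 encodes the slow (type I) myosin, MYH2 the fast IIa myosin and MYH4 the fast IIb myosin. The paper left MYH1, the myosin of IIX fibres, unquantified because it was misannotated in the reference genome. MYH1 enters no share here, so the classes do not cover all fast myosin. MYH7-dominant spots had a MYH7 share of 0.75 or more of their MYH7, MYH2 and MYH4 UMIs, and MYH2/MYH4-dominant spots had a share of 0.5 or less. Within the MYH2/MYH4-dominant spots, MYH4-rich spots were the upper tertile by MYH4 share, taken over MYH2 plus MYH4 UMIs and starting at 0.214 in section 1 and 0.2 in section 2. MYH4-poor spots were those up to the lower tertile limit, which was 0 in both sections. They were therefore all 391 and 508 MYH2/MYH4-dominant spots without a MYH4 UMI, and at this depth that does not show that MYH4 was absent. The middle class held the 206 and 327 spots between these limits. There were 731 and 821 MYH7-dominant spots in sections 1 and 2, against 897 and 1324 MYH2/MYH4-dominant spots. A further 221 and 291 spots lay between these limits and formed a mixed class. In all, 1849 of 2429 and 2436 of 2878 kept spots were classed, and the others had too few myosin UMIs.

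Complex I takes electrons from NADH, passes them through a flavin and a chain of iron-sulfur clusters to ubiquinone, and pumps protons across the inner mitochondrial membrane. Its peripheral arm holds the redox centres and its membrane arm the proton pumps, whose core is encoded by the mitochondrial ND genes. Core subunits carry out the chemistry, supernumerary subunits surround and stabilise them, and assembly factors help to build the enzyme without staying in it. Slow oxidative fibres are known for more mitochondria than fast glycolytic fibres.

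Kept spots numbered 2429 and 2878, with median UMI counts of 929 and 1350.5, and the sections held 3633249 and 5382677 UMIs in all before spots were removed. The tissue label was checked against defining muscle transcripts. The UMIs of ACTA1, skeletal muscle actin, in kept spots came to 7.85% and 8.05% of these totals, and those of MYH7 to 1.47% and 1.32%. NDUF members took 32060 UMIs in section 1 and 45385 in section 2, which is 0.890% and 0.845% of the UMIs of kept spots. An NDUF UMI was found in 92.1% of spots in section 1 (95% Wilson interval 91.0 to 93.1%) and in 94.8% in section 2 (93.9 to 95.5%), with a median of 7 and 9 NDUF UMIs per spot. Intervals here cover counting error only. The sections shared 2104 spot barcodes, which mark slide positions and not cells. In sums over spots, a smaller area of slow fibre and less RNA per fibre cannot be told apart.

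Of the 39 members, 37 were seen in at least 15 spots of both sections, and 33 passed the filter on low counts in the comparison of classes. The 6 that did not were NDUFS8 (1 UMI in section 1 and 0 in section 2), NDUFAF7 (5 and 13 UMIs), NDUFAF2 (17 and 20), NDUFAF6 (18 and 37), NDUFAF4 (27 and 55) and NDUFAF5 (38 and 56). Thus 29 of 30 subunits but only 3 of 8 assembly factors could be tested. NDUFS8 encodes a core iron-sulfur subunit that every complex I contains.

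The members lay on 16 chromosomes of Sscrofa11.1, with 7 on chromosome 2 and 2, NDUFA1 and NDUFB11, on chromosome X. Coordinates are those of RefSeq genes of the same symbol. In 10 members another RefSeq gene overlapped, always on the other strand. Stretches of 120 bases before the RefSeq start site are shown for the 3 members with the largest difference between classes (NDUFA1, NDUFA13 and NDUFS1), for NDUFV1, which was called in both comparisons of classes, and for NDUFB4 and NDUFS4, which differed little, with capitals marking matches to the motifs named after them. The stretches are chrX:98219597-98219716 (plus strand), chr2:58410415-58410534 (minus strand), chr15:109451814-109451933 (minus strand), chr2:4964212-4964331 (minus strand), chr13:139730493-139730612 (minus strand) and chr16:32874298-32874417 (plus strand), in this order.
NDUFA1: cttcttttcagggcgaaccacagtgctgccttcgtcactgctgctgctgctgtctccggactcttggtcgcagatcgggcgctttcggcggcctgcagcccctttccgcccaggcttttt
NDUFA13: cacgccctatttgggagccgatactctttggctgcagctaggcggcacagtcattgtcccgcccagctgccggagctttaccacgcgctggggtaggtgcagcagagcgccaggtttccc
NDUFS1: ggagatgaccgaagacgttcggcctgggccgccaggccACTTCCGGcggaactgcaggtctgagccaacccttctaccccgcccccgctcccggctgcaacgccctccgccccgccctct
NDUFV1: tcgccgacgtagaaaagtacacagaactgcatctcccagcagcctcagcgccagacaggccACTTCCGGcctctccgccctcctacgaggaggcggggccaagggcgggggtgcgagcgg
NDUFB4: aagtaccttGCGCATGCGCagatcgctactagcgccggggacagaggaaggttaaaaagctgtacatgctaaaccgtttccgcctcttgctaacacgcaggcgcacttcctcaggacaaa
NDUFS4: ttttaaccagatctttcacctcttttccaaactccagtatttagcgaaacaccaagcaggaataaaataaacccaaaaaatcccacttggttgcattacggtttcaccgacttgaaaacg

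The motifs were those of NRF1 (GCGCANGCG), ETS factors such as GABP (CCGGAAGT), YY1 (AAGATGGC) and ERR (TCAAGGTCA), regulators known for genes of mitochondrial respiration, searched on both strands from 250 bases before to 50 bases after the start. The ETS letters occurred on the other strand in NDUFS1, beginning 82 bases before the start, and in NDUFV1, 59 bases before it. NDUFB4 held the NRF1 letters on both strands, at overlapping positions. The NRF1 motif was present in 7 of 39 member promoters (17.9%), against 8.53% of all 19556 promoters of this length. The ETS motif was present in 4 members (10.3%, against 4.68%), YY1 in 5 (12.8%, against 2.48%) and ERR in 0 (against 0.358%). A match is a description of letters and not of binding. Among tested members, the 15 with any of these motifs had a median log2 difference between MYH7-dominant and MYH2/MYH4-dominant spots of 0.55, and the 18 without had 0.49.

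NDUF genes were higher in MYH7-dominant spots nearly throughout. Of 33 tested members, 28 were higher in MYH7-dominant than in MYH2/MYH4-dominant spots (edgeR quasi-likelihood test on UMIs summed per section and class, Benjamini-Hochberg adjusted over all genes, threshold 0.05), against 15.9% of all 4222 genes tested. None was lower (0 at an unadjusted p under 0.05, 0 with DESeq2), against 14.4% of all genes. The median log2 fold change was 0.53 over the members and -0.0098 over all genes. The median SE was 0.092 over the members and 0.23 over all genes, so the shares called were not compared at equal precision. Scaled by the number of spots in place of UMIs, all 33 were higher with a median of 2.02, beside 1.47 over all genes. The typical gene was thus higher too on that scale, and the count of 33 does not by itself set the members apart. Summed over the 30 subunits, CPM (UMIs of a gene scaled by the total UMIs of the class) were 9688 and 9361 in MYH7-dominant spots of sections 1 and 2, against 6853 and 6503 in MYH2/MYH4-dominant spots. Both values of the MYH7-dominant spots lay above both of the others, and the 95% Poisson intervals did not overlap. In 29 of the 33 members each MYH7-dominant sum lay above each of the 6 MYH2/MYH4-dominant sums, against 14.9% of all genes.

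**Figure D1:**
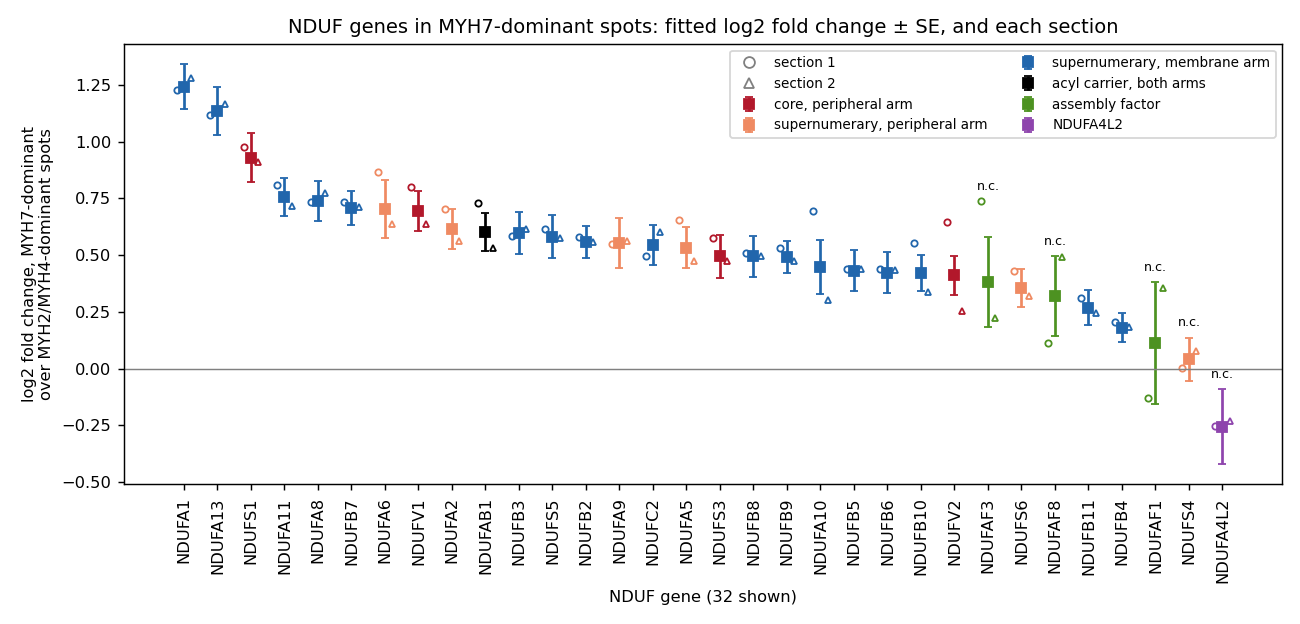
Log2 fold change of MYH7-dominant over MYH2/MYH4-dominant spots (vertical axis) for 32 of the 33 tested NDUF genes (horizontal axis, ordered by size). Squares with bars are the fitted value ± SE, circles and triangles are sections 1 and 2, colour gives the structural group and n.c. marks the 5 genes that were not called. The fitted values run from 1.24 in NDUFA1 to -0.26 in NDUFA4L2, and NDUFA4L2 alone turned positive when UMIs were scaled by the number of spots.

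Among core subunits of the peripheral arm, all 5 that could be tested were higher. NDUFS1, the largest iron-sulfur subunit, had 206 and 232 CPM in MYH7-dominant spots, against 109 and 125 CPM in MYH2/MYH4-dominant spots, so the classes did not overlap. Its fold change was 1.91 (log2 0.93, SE 0.11, adjusted p = 3.5e-15). NDUFV1, which binds NADH and the flavin, had 343 and 317 CPM in MYH7-dominant spots, against 221 and 206 CPM, a fold change of 1.62 (log2 0.69, SE 0.088). NDUFV2, its iron-sulfur partner, had 332 and 311 CPM, against 223 and 256 CPM. Its fold change of 1.33 (log2 0.41, SE 0.086) was 0.64 on the log2 scale in section 1 and 0.25 in section 2. NDUFS3, which lies at the ubiquinone end of the arm, had a log2 fold change of 0.49.

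Of 6 supernumerary subunits of the peripheral arm, 5 were higher, with a median of 0.54 over all 6. NDUFA6, a small subunit of the LYR family, had 135 and 142 CPM in MYH7-dominant spots, against 78.9 and 90.4 CPM in MYH2/MYH4-dominant spots, a fold change of 1.63 (log2 0.70, SE 0.13). NDUFS6, a zinc-binding subunit, had 351 and 336 CPM, against 275 and 265 CPM, a fold change of 1.28 (log2 0.35, SE 0.082). With class limits of 0.9 and 0.1 the calls of NDUFS6 and NDUFA9 in this group, and of NDUFB3 in the membrane arm, were lost. NDUFS4, whose loss in humans and mice causes Leigh syndrome or a like disease, had 200.5 and 209.8 CPM in MYH7-dominant spots, against 209.0 and 197.6 CPM. The values overlapped, and the fold change was 1.03 (log2 0.041, SE 0.096, adjusted p = 0.80). Of the 29 tested subunits among the members, NDUFS4 alone was not called. NDUFA2, NDUFA9 and NDUFA5 had log2 fold changes of 0.61, 0.55 and 0.53.

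All 17 supernumerary subunits of the membrane arm among the members were higher, with a median of 0.55 and the widest range of any group, from 0.18 to 1.24. NDUFB1 also belongs to this arm but was named by identifier and is not among the 17, and it was not called. NDUFA1, a small membrane subunit encoded on the X chromosome, had 309 and 285 CPM in MYH7-dominant spots, against 143 and 115 CPM in MYH2/MYH4-dominant spots, a fold change of 2.37 (log2 1.24, SE 0.10, adjusted p = 1.2e-28). NDUFA13, also known as GRIM-19, had 284 and 238 CPM, against 138 and 104 CPM, a fold change of 2.20 (log2 1.14, SE 0.10). In both genes the classes were far apart in both sections.

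NDUFA11, NDUFA8 and NDUFB7 came next in this arm. NDUFA11 had 403 and 366 CPM in MYH7-dominant spots, against 241 and 221 CPM in MYH2/MYH4-dominant spots, with a fold change of 1.69 (log2 0.76). NDUFA8, which lies on the intermembrane side, had 326 and 351 CPM, against 213 and 205 CPM, with a fold change of 1.67 (log2 0.74). NDUFB7, also on the intermembrane side, had 549 and 517 CPM, against 359 and 313 CPM, with a fold change of 1.63 (log2 0.71). In each of the 3 genes both MYH7-dominant values exceeded both MYH2/MYH4-dominant values.

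The smallest called differences also lay in the membrane arm. NDUFB4 had 765 and 800.2 CPM in MYH7-dominant spots, against 700.3 and 689.8 CPM in MYH2/MYH4-dominant spots, a fold change of 1.13 (log2 0.18, SE 0.064, adjusted p = 0.019). NDUFB11, the other X-linked member, had 407 and 383 CPM, against 341 and 317 CPM, a fold change of 1.20 (log2 0.27, SE 0.078). These 2 calls were lost with DESeq2, without the spots richest in matrix transcripts, and with class limits of 0.9 and 0.1. The X-linked pair therefore stood near the 2 ends of the called members, at log2 1.24 and 0.27.

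NDUFA10, NDUFB10, NDUFB6 and NDUFB5 had log2 fold changes of 0.45, 0.42, 0.42 and 0.43. NDUFA10 had 154 and 144 CPM in MYH7-dominant spots, against 98.9 and 116 CPM. NDUFB10 had 404 and 393 CPM, against 289 and 307 CPM. NDUFB6 had 260.4 and 264 CPM, against 208 and 193 CPM, and NDUFB5 had 274 and 265 CPM, against 213 and 192 CPM. No value of these genes in MYH2/MYH4-dominant spots reached the lower of the MYH7-dominant values, though the call of NDUFA10 was lost with DESeq2 and with class limits of 0.9 and 0.1. Between the 8 largest and the 8 smallest called differences stood 12 members with log2 fold changes of at least 0.49 and adjusted p of at most 6.0e-06, among them NDUFB2, NDUFB3, NDUFB8, NDUFB9, NDUFC2 and NDUFS5.

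NDUFAB1, the mitochondrial acyl carrier protein that sits in both arms, had 380.4 and 349 CPM in MYH7-dominant spots, against 247 and 241 CPM in MYH2/MYH4-dominant spots. Its fold change was 1.52 (log2 0.60, SE 0.084, adjusted p = 6.3e-11), within the range of the subunits.

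None of the 3 assembly factors tested was called (0 at an unadjusted p under 0.05, 0 with DESeq2), except that all 3 were higher when UMIs were scaled by the number of spots. On that scale the median of all genes was raised as well. Summed over all 8, assembly factors had 340 and 502 UMIs or 159 and 173 CPM in MYH7-dominant spots, against 124 and 221 UMIs or 138 and 132 CPM in MYH2/MYH4-dominant spots. The 95% Poisson intervals overlapped in section 1 (143 to 177 CPM against 115 to 164 CPM) and not in section 2 (158 to 189 CPM against 115 to 151 CPM). NDUFAF3, which acts with NDUFAF4 early in the building of the ubiquinone module, had 45.4 and 49.3 CPM, against 31.1 and 41.3 CPM, and a log2 fold change of 0.38 (SE 0.20). NDUFAF8, which stabilises NDUFAF5, had 59.0 and 61.1 CPM, against 56.7 and 42.5 CPM, and 0.32 (SE 0.18). NDUFAF1, a factor of the membrane arm, had 24.4 and 25.2 CPM, against 27.8 and 21.6 CPM, and 0.11 (SE 0.27). Their standard errors were 0.18 to 0.27, and such counts do not show that assembly factors were level between classes. Assembly factors of complex I with other symbols, 5 of them tested, were higher in 4 and had a median of 0.67.

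NDUFA4L2, a paralogue of NDUFA4 that is induced by hypoxia in human and mouse cells, was the only tested member with a negative fitted value. It had 52.9 and 59.3 CPM in MYH7-dominant spots, against 68.9 and 68.3 CPM in MYH2/MYH4-dominant spots. These pooled values did not overlap, but the middle class of MYH2/MYH4-dominant spots, at 52.9 and 59.7 CPM, overlapped with MYH7-dominant spots. The log2 fold change of -0.26 (SE 0.17) was not called (adjusted p = 0.25, edgeR). Without the spots richest in matrix transcripts it was -0.45 (adjusted p = 0.045), and when UMIs were scaled by the number of spots it was positive. NDUFA4, now counted with complex IV, had 1610 and 1480 CPM, against 800.3 and 742 CPM, a fold change of 2.03 (log2 1.02, SE 0.057, adjusted p = 7.4e-51). The paralogues thus differed in their fitted direction, though the difference between them was not tested. Of the other features named by identifier, NDUFA7 had a log2 fold change of 0.40 (adjusted p = 3.3e-06). NDUFB1, a supernumerary subunit of the membrane arm, had -0.0014 (adjusted p = 0.99).

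**Figure D2:**
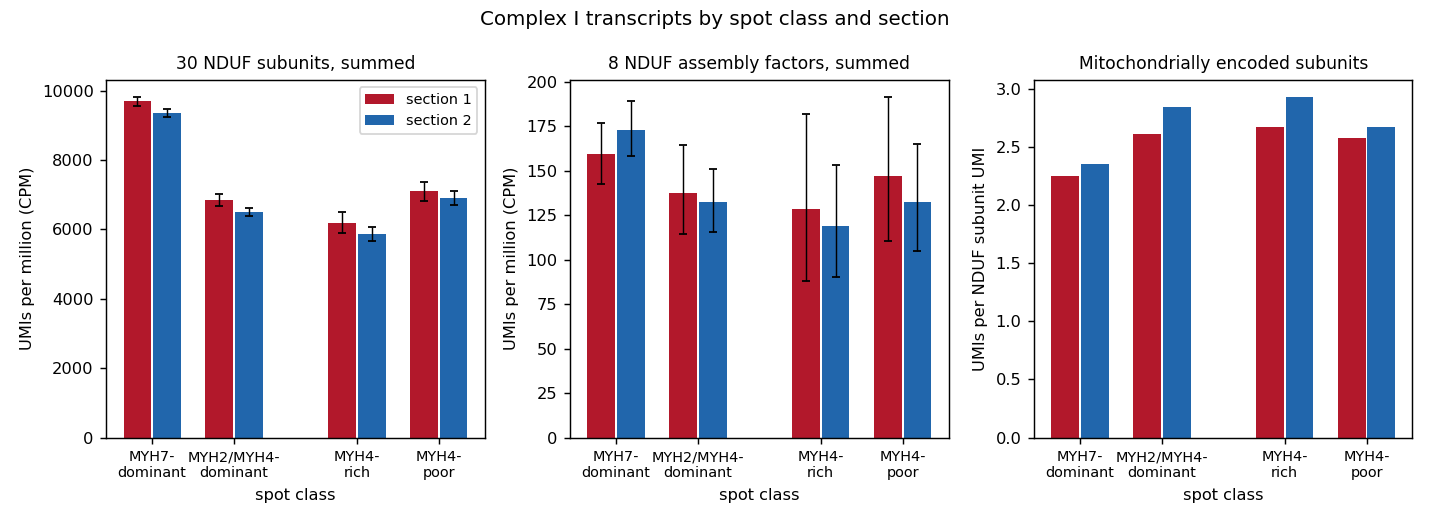
Summed CPM of the 30 NDUF subunits (left) and the 8 NDUF assembly factors (middle), with exact 95% Poisson intervals as bars, and UMIs of the 7 mitochondrially encoded complex I subunits per NDUF subunit UMI (right), in MYH7-dominant beside MYH2/MYH4-dominant spots and in MYH4-rich beside MYH4-poor spots, for sections 1 and 2. Subunits stand at 9688 and 9361 CPM in MYH7-dominant spots and at 6853 and 6503 CPM in MYH2/MYH4-dominant spots.

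Subunits of the other respiratory complexes were higher in MYH7-dominant spots as well. All 4 tested genes of complex II were higher (median log2 fold change 0.83), as were all 7 of complex III (0.73), 9 of 10 of complex IV (0.62, without NDUFA4) and 11 of 12 of complex V (0.61, with 1 lower). The 29 tested NDUF subunits had a median of 0.55. NDUF subunits took 23.0% and 23.1% of the UMIs of the listed nuclear subunits of complexes I to V, again without NDUFA4, in MYH7-dominant spots, against 24.3% and 24.6% in MYH2/MYH4-dominant spots. The 95% Wilson intervals of these shares did not overlap in either section (22.7 to 23.3% against 23.8 to 24.8%, and 22.9 to 23.4% against 24.2 to 25.0%). Of the 7 ND genes of the mitochondrial genome, 5 were higher, with a median of 0.28 and a largest value of 1.97. There were 2.25 and 2.35 UMIs of ND genes for each NDUF subunit UMI in MYH7-dominant spots, against 2.61 and 2.84 in MYH2/MYH4-dominant spots. The ratio was thus lower in MYH7-dominant spots of both sections, with intervals of 2.22 to 2.29 against 2.53 to 2.69, and 2.32 to 2.39 against 2.78 to 2.90.

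Other features of the spots moved with this comparison. MYH7-dominant spots had median UMI counts of 2961 and 3598, whereas the 3 MYH2/MYH4-dominant classes had medians of 599.5 to 1549. The mitochondrially encoded share of UMIs, which was also used to filter spots, was 19.5% and 18.9% in MYH7-dominant spots and 10.2 to 13.2% in those classes, and without mitochondrially encoded genes 28 members were higher. Within spots of interquartile depth, 27 members were higher, the call of NDUFS3 being lost. Of 12 tested transcripts of fibroblasts and extracellular matrix, 11 were lower in MYH7-dominant spots, at a summed 1486 and 1412 CPM, against 3231 and 2617 CPM, and 1 of the 14 listed was at 0 in MYH7-dominant spots of section 2. Of 5 tested macrophage markers 4 were lower, at 109 and 104 CPM, against 251 and 212 CPM. Of other markers, 4 of 6 for smooth muscle were lower and 1 was higher, 3 of 4 for fat cells were lower, and 1 of 5 for endothelium was higher. Without the 20% of spots richest in matrix transcripts, 26 of 33 members were higher and 1, NDUFA4L2, was lower. The counts under these changed gene and spot sets are given without the share of all genes called, which can differ from that of the main comparison. The part of depth and of these cell types in the values of single members was not tested otherwise.

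The gradation among members recurred between sections. In section 1 the log2 fold change of the 33 members had a median of 0.59, an SD of 0.32 and a range of -0.25 to 1.23. In section 2 the median was 0.50, the SD 0.29 and the range -0.23 to 1.28. The sign was the same in both sections for 32 of 33 members, NDUFAF1 being the exception, against 3096 of all 4222 genes. Across the 33 genes Pearson's r between sections was 0.81, and across the 29 subunits it was 0.88, against 0.70 over all genes tested. These describe genes of shared libraries, which are not independent replicates, and the members had a smaller median SE than all genes. The median absolute difference between sections was 0.066 and the largest 0.51, in NDUFAF3.

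**Figure D3:**
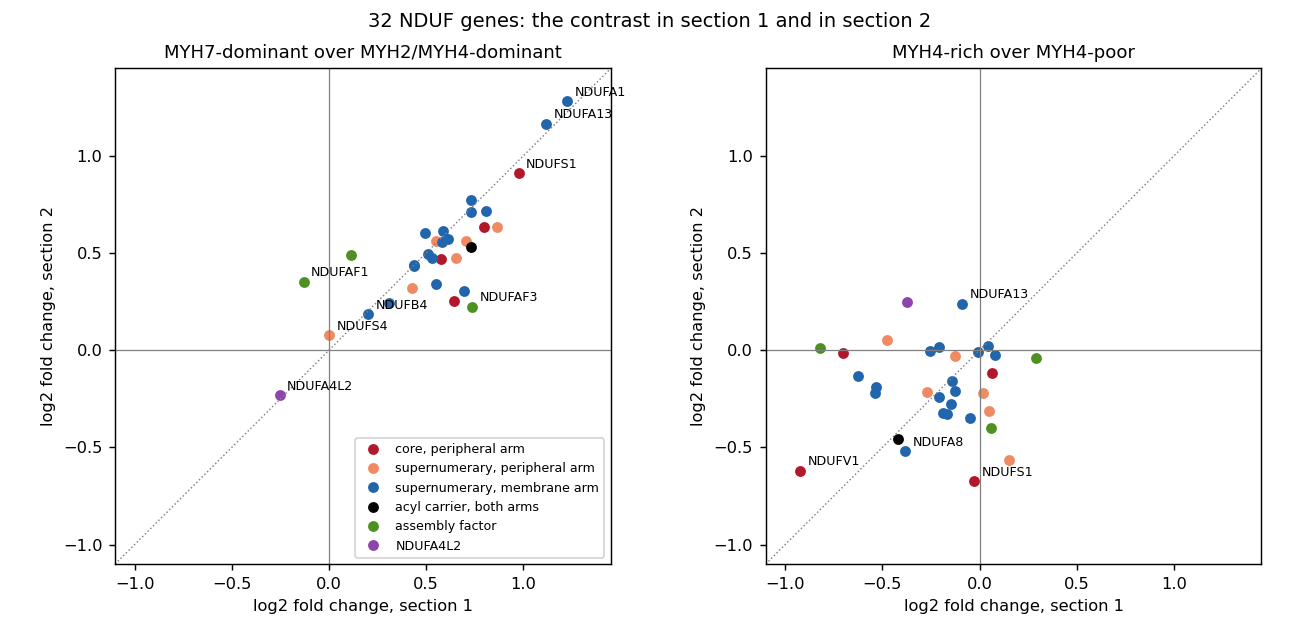
Log2 fold change in section 1 (horizontal axis) and in section 2 (vertical axis) of 32 of the 33 tested NDUF genes, coloured by structural group, for MYH7-dominant over MYH2/MYH4-dominant spots (left) and for MYH4-rich over MYH4-poor spots (right). The dotted line marks equal values. The points follow the line on the left (r = 0.81 over all 33) and lie mostly below 0 without a common order on the right (r = -0.13 over all 33).

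Spots were next sorted into 6 bins of the MYH7 share, to see whether the difference was graded. Subunits rose step by step. Their sums from the lowest to the highest bin were 5921, 6678, 7120.5, 8324, 9329 and 9857 CPM in section 1, and 5762, 6198, 6834.5, 8080.0, 9074 and 9578.5 CPM in section 2. A slope on the MYH7 share, in log2 units from a share of 0 to a share of 1, was fitted over the 12 sums. It was positive and called in 27 of 33 members, against 13.1% of all genes, and negative and called in 0 (0 at an unadjusted p under 0.05, 0 with DESeq2), against 12.4%. The median slope was 0.79. Sums of assembly factors did not rise at every step, with 160.3, 124, 141, 144, 153 and 162 CPM in section 1 and 172, 142, 119, 152, 178 and 169.7 CPM in section 2. In section 1 they rose from the second bin to the highest, and the lowest bin held only 16 and 27 of their UMIs.

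The 3 members with the steepest slopes are given by bin, and no difference in shape between them was tested. NDUFA1 had 140.3, 139, 146, 228, 269 and 328 CPM from the lowest to the highest bin in section 1. It had 115, 111, 118, 171, 257 and 307 CPM in section 2. NDUFA1 stayed between 111 and 146 CPM in the 3 bins up to a share of 0.5 and was higher in each bin above it, with 14 and 18 UMIs in the lowest bin and a fitted slope of 1.82 (adjusted p = 1.9e-11).

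NDUFA13 had 110.2, 121, 152, 213, 267 and 292 CPM in section 1, and 109, 71.0, 126, 176, 229 and 245 CPM in section 2. NDUFS1 had 90.2, 106, 114, 175, 212 and 203 CPM in section 1, and 70.2, 101, 151, 184.5, 222 and 239.9 CPM in section 2. In the lowest bin NDUFA13 had 11 and 17 UMIs and NDUFS1 had 9 and 11 UMIs, so differences among the lower bins are imprecise. Their slopes were 1.78 and 1.47.

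The 3 members with the smallest slopes were level or irregular. NDUFS4 had 220.4, 219, 202, 209, 172 and 214 CPM in section 1, and 185, 188, 206, 223, 199 and 218 CPM in section 2. NDUFAF1 had 30.1, 29.2, 26.6, 16.8, 20.5 and 26.2 CPM in section 1, and 19.1, 21.5, 22.03, 25.3, 32.1 and 19.99 CPM in section 2. NDUFS4 stayed between 172 and 223 CPM throughout, and NDUFAF1 was lowest in the fourth bin of section 1 and highest in the fifth bin of section 2, with only 3 UMIs in the lowest bin of each section.

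NDUFA4L2 had 100.2, 47.5, 74.1, 36.0, 55.5 and 51.7 CPM in section 1, and 44.7, 69.4, 71.6, 56.5, 57.7 and 60.6 CPM in section 2. It was highest in the lowest bin of section 1 and lowest in the lowest bin of section 2, where it had 10 and 7 UMIs. The slopes of NDUFS4, NDUFAF1 and NDUFA4L2 were 0.016, 0.019 and -0.38, none of them called. Scaled by the number of spots, the slope of NDUFA4L2 was positive.

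**Figure D4:**
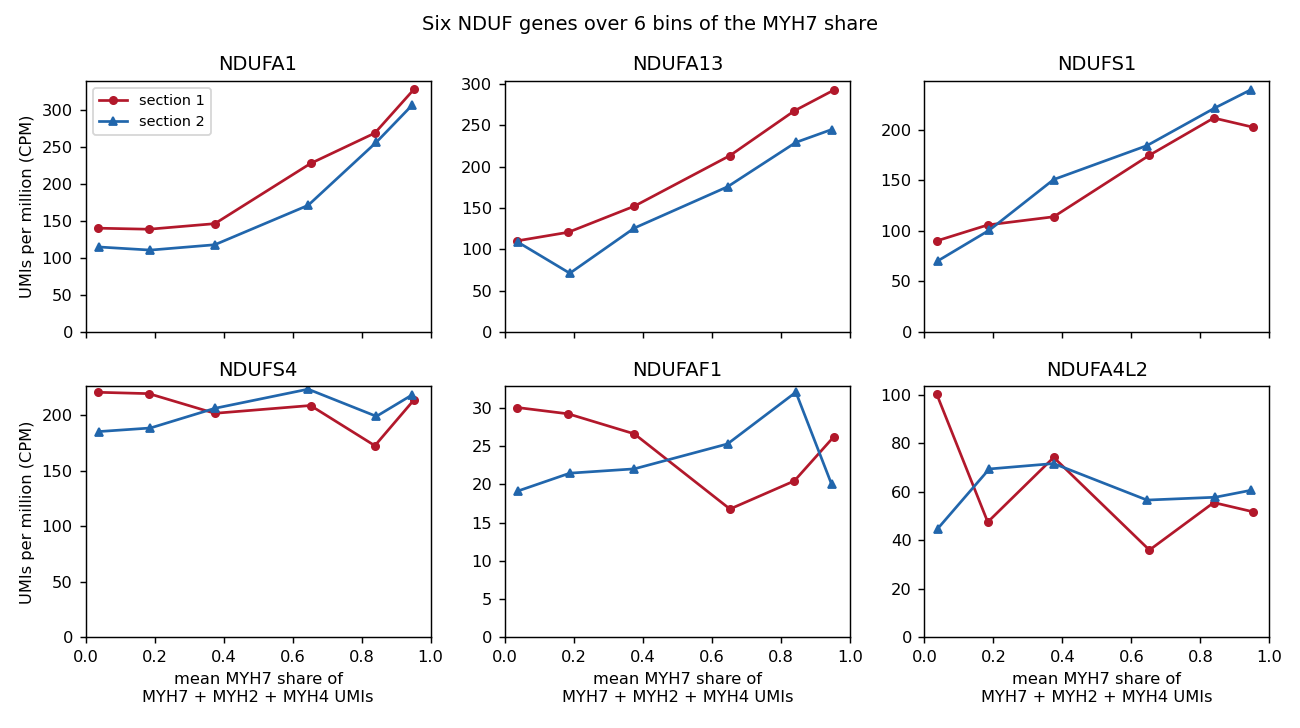
CPM (vertical axes, each from 0) over the mean MYH7 share of 6 bins of spots (horizontal axes) for the 3 NDUF genes with the steepest slopes (top row) and the 3 with the smallest (bottom row), with circles for section 1 and triangles for section 2. NDUFA1 stays between 111 and 146 CPM up to a share of 0.5 and reaches 328 and 307 CPM in the highest bin, while NDUFS4 lies between 172 and 223 CPM in all bins.

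Differences among the fast spots were smaller than those between the MYH7 classes, and less precise, with a median SE of 0.17 over the members. Of 33 tested members, 1 was lower in MYH4-rich than in MYH4-poor spots, against 1.21% of all genes, and 0 were higher (0 at an unadjusted p under 0.05, 0 with DESeq2), against 1.18%. At an unadjusted p under 0.05, 7 were lower, beside 450 of all 4222 genes in either direction. With scaling by spot number 8 were called lower, on a scale where the median of all genes was also negative. Their median log2 fold change was -0.20, with 28 of 33 negative, beside 0.0034 over all genes. Subunits summed to 6190.4 and 5865 CPM in MYH4-rich spots, against 7098 and 6903 CPM in MYH4-poor spots, with Poisson intervals that did not overlap.

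The member called was NDUFV1. It had 145 and 155 CPM in MYH4-rich spots, against 277.5 and 245 CPM in MYH4-poor spots, a log2 fold change of -0.73 (SE 0.17, adjusted p = 0.0025, edgeR). From the lowest to the highest of 4 bins of the MYH4 share it had 293, 236, 165 and 144 CPM in section 1, and 248.6, 215.5, 137 and 169.6 CPM in section 2. Its values were lower in the upper bins of both sections. The slope on the MYH4 share was -1.49 (adjusted p = 0.015), and NDUFV1 was the only 1 of 32 tested members called as falling, against 2.39% of all genes. At an unadjusted p under 0.05, 9 fell, beside 333 of all 2344 genes in either direction. Of the 32 slopes, 28 were negative, with a median of -0.46. None was called as rising (0 at an unadjusted p under 0.05, 0 with DESeq2), against 1.96%. The call of NDUFV1 between the classes was lost within spots of interquartile depth (log2 -0.61, adjusted p = 0.13), and that of its slope there, with DESeq2, without matrix-rich spots and without section 1 (-1.096, adjusted p = 0.44).

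NDUFAB1 had 181 and 193 CPM in MYH4-rich spots, against 245 and 273 CPM in MYH4-poor spots, a log2 fold change of -0.43 (SE 0.16, adjusted p = 0.18). It was called, with NDUFV1, once matrix-rich spots were left out. NDUFA4L2 had 64.4 and 78.6 CPM, against 84.3 and 67.9 CPM, which overlapped. NDUFA4 had 696 and 667 CPM, against 816 and 785 CPM, with a log2 fold change of -0.20 (adjusted p = 0.43).

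The sections showed no shared order of members in this comparison. The median SE of the members was 0.17 and the SD of their fitted values 0.18, so a shared order could have been missed. Pearson's r across the 33 genes was -0.13, and 20 had the same sign in both sections, against 0.049 and 2333 of 4222 over all genes. The SD of the members was 0.31 in section 1 and 0.24 in section 2, while their medians were -0.15 and -0.21. MYH4-rich spots also had a lower MYH7 share than MYH4-poor spots (means of 0.225 and 0.237, against 0.304 and 0.298), fewer UMIs (medians of 599.5 and 799, against 791 and 921.5) and a higher sum of matrix transcripts (3731 and 2844 CPM, against 2794 and 2290 CPM). Within bins of the MYH7 share, a comparison chosen after seeing the data, NDUFV1 was lower (log2 -0.72, SE 0.19, adjusted p = 0.041, edgeR) and no other member was called. That comparison did not match spots for depth or matrix transcripts. Of other respiratory genes, 3 of 7 tested genes of complex III and 5 of 10 of complex IV were lower in MYH4-rich spots, with medians of -0.35 and -0.26.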

How the data were processed

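The deposited matrices hold raw UMI counts, unnormalised, for each feature in each spot. The authors obtained them with Space Ranger 1.1 and a pig reference built on Sscrofa11.1, from which the Y chromosome was left out and which also held MYH2 and MYH4 gene models of an earlier annotation. Its annotation release differs between labels and methods. Barcoded pig RNA served as carrier, and the sources used here do not give the fate of its reads. The hand removal of spots by the study, the positions and the images were not used.

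Spots with over 25% mitochondrially encoded UMIs (8 and 2) and then the 2% with fewest UMIs (50 and 59) were removed. After this the depth per spot was 53 to 7431 UMIs (section 1) and 89 to 9200 UMIs (section 2). Genes seen in under 15 spots of a section, haemoglobin genes and the 3 myosin genes were not tested. Spots needed at least 5 MYH7, MYH2 and MYH4 UMIs. Because spots are not replicates, UMIs were summed per section and class (10 sums), per MYH7 bin (12) and, with at least 5 MYH2 and MYH4 UMIs, per MYH4 bin (8). The test was the quasi-likelihood test of edgeR 4.0.16, run in R 4.3.3 (TMM factors, filterByExpr with a minimum count of 10, Benjamini-Hochberg over all genes), with the section as a block. The first contrast set MYH7-dominant spots against the average over all 3 classes of MYH2/MYH4-dominant spots, whereas CPM of these spots are pooled. The class fit had 4 residual beside 406.7 prior degrees of freedom. Its smallest p-values therefore lean on the spread that genes share, and they measure only the spread between these sums, which may be technical. Values per section carry no SD. CPM used all UMIs of a class, and levels of different genes were not compared.

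The replicate number is the section, and the classes of a section share its tissue and library, which is where the pairing comes from. Alternatives were DESeq2 1.42.0, no filter, scaling by spots, other limits and spot sets, and leaving out a section. The class fit and the MYH7-bin fit were tried on simulated counts, the latter with less spread than its real sums had. The MYH4-bin fit was not tried in this way. Every member was counted, 1 is not reported here by itself, and values were given for the 8 largest and 8 smallest called differences, NDUFA4, NDUFA4L2 and NDUFAB1, and bins for the 3 largest and 3 smallest slopes; NDUFV1's MYH4 bins and the motif split were chosen after values were seen. The members and lists were chosen with earlier results of these data known.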

Additional observations from a re-analysis of the deposited data

How the results depend on the processing

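The number of members higher in MYH7-dominant spots was 28 and ranged from 20 of 27 tested (classes at 0.9 and 0.1) to 33 (scaled by the number of spots), and of those rising with the MYH7 share from 21 (1 section left out) to 33. Without matrix-rich spots 1 member was lower in MYH7-dominant spots, against 0. Members lower in MYH4-rich spots numbered 1, but 8 when scaled by the number of spots, 2 without matrix-rich spots and 0 at interquartile depth. Members falling with the MYH4 share numbered 1, but 0 with DESeq2, 0 at interquartile depth, 2 without matrix-rich spots (NDUFS3 and NDUFAB1) and 0 to 1 when a section was left out. The causes were not tested. Scaling by spots moved the median of all genes to 1.47 (MYH7 classes), -0.24 (MYH4 classes), 2.38 and -1.13 (slopes), and on that scale NDUFA4L2 was higher in MYH7-dominant spots (log2 1.22) and had a slope of 2.03. Without the replicate block the counts were the same, at 28, 1, 27 and 1, and 0 in the other directions, and the block changed no call of a named member. Class contrasts within 1 section have values but no test. Depth limited the assembly factors, 5 of which were not tested.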
